A study of Mus musculus with 7 samples.

Results

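The muscle microRNA genes of the miR-1, miR-133 and miR-206 family were examined in 6 lists of ChIP-seq peaks from mouse gastrocnemius. These genes form 3 clusters of 2 genes each, Mir1a-1 with Mir133a-2, Mir1a-2 with Mir133a-1, and Mir206 with Mir133b, and make up 6 of the 2202 microRNA genes in the annotation. The members are the peaks within 20 kb of these genes, with a fixed interval around the first cluster added, and number 85 of the 527912 peaks in the 6 lists. The loci were chosen by measured values, because the −log10 p of BMAL1 and REV-ERBα at the Mir1a-1 and Mir133a-2 cluster was known to be high, and the related clusters were added by gene family. The BMAL1 and REV-ERBα values at that first cluster are therefore a description, and no test is attached to any value here. ChIP-seq sequences the DNA that an antibody recovers with a protein. Gastrocnemius, a calf muscle of mostly fast fibers, came from male C57BL/6J mice that the labels call wild type, kept on standard chow under equal light and dark phases and 3 to 5 months old by the study's methods. There were 2 replicates each for BMAL1 at Zeitgeber time (ZT) 4, REV-ERBα at ZT 8 and RNA polymerase II (RNAP2) at ZT 4, and ZT 0 is lights on. The labels title these samples controls, the study's controls were Cre-negative littermates, and whole muscle also holds vessels, nerve, blood and connective tissue. REV-ERBα was mapped at another time than BMAL1 and RNAP2, so factor and time cannot be told apart.

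MicroRNAs are short RNAs that lower the output of messenger RNAs by pairing with them through a seed, bases 2 to 8 of the mature strand. miR-1 and miR-133 are cut from shared primary transcripts in heart and skeletal muscle, and miR-206 with miR-133b from a transcript found mainly in skeletal muscle, in particular during development and regeneration. The myogenic factors MYOD and myogenin, the MEF2 family and SRF are known activators of these transcripts. BMAL1 is the activating subunit of the circadian clock that binds E-boxes with CLOCK, REV-ERBα is a nuclear receptor that represses its targets, and RNAP2 transcribes primary microRNAs.

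Mature sequences are shown with the seed in capitals, because a strand pairs with messenger RNAs through it. RefSeq (GRCm38.p6) gave 5 mature sequences for 3 of the 6 genes, Mir1a-1, Mir206 and Mir133b, from 5′ to 3′.
miR-1a-1-5p: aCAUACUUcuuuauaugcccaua
miR-206-5p: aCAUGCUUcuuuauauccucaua
miR-206-3p: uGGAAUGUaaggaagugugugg
miR-133b-5p: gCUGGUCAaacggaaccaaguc
miR-133b-3p: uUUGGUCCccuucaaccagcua
The 5′ arms of miR-206 and miR-1a-1 share 20 of 23 bases, counted from 1 at the 5′ end, and differ by G5A, C17G and U19C with the base of miR-206 first. G5A lies in the seed, so these passenger strands have different seeds. The miR-206-3p strand carries the seed GGAAUGU, by which miR-1 and miR-206 are known to share targets, and miR-133b-3p carries UUGGUCC. Mir1a-1 lies at 2:180389048 to 180389124 and Mir133a-2 at 2:180398379 to 180398482, both on the plus strand in intron 3 of the host RNA Mir1a-1hg. Mir206 lies at 1:20679010 to 20679082 in intron 2 of Lincmd1, a muscle RNA, and Mir133b at 1:20682769 to 20682887 in exon 3 of that transcript.

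The next sequences are shown because the strongest peaks of the first cluster lie on or beside them. The promoter of Mir1a-1hg (chr2:180385354-180385653, plus strand, RefSeq GRCm38.p6) runs from 250 bases before the annotated transcription start site (TSS) to 50 after it, and capitals mark CANNTG and TATATAA.
Mir1a-1hg promoter: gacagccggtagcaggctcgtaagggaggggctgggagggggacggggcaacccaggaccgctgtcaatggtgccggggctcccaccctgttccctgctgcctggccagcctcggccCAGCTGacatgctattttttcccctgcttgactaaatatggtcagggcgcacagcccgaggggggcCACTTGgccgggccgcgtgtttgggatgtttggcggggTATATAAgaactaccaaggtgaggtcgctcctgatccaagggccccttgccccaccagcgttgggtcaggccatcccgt
CAGCTG, the E-box form that myogenic factors are known to bind, starts at −133 bp from the TSS, a further CANNTG, here with the letters CACTTG, at −67 bp, and TATATAA, one form of the TATA box, searched only after the sequence had been seen, starts at −29 bp. On either strand CAGCTG occurs in 16.3%, CANNTG in 72.3% and TATATAA in 3.24% of 32851 RefSeq promoters of this length. Neither CACGTG, present in 7.15% of all promoters, nor the nuclear receptor site AGGTCA (16.3%), the MEF2 consensus (3.19%) or the ROR response element (RORE, 0.773%) matched in this window. The 300 bases at chr2:180399924-180400223 (plus strand, RefSeq GRCm38.p6) hold the strongest summits of BMAL1 replicate 1 and of both REV-ERBα replicates, at 180400144, 180400166 and 180399981. Capitals mark CANNTG, of which CACGTG is a special case.
Downstream of Mir133a-2: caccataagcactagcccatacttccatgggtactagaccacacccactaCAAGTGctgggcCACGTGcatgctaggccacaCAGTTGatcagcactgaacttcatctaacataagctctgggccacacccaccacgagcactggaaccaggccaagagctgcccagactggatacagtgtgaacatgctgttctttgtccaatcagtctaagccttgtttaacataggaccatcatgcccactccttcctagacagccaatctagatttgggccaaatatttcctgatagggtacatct
CACGTG, the E-box form known for BMAL1 with CLOCK, starts at 180399986, which is 1504 bp past the 3′ end of the Mir133a-2 hairpin in intron 3 of the host. Counted from the strongest summits it starts at +5 bp for REV-ERBα replicate 2, −158 bp for BMAL1 replicate 1, −180 bp for REV-ERBα replicate 1 and −702 bp for BMAL1 replicate 2. A match is a description of the letters and not of a bound site.

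The annotation places the 3 clusters in unlike transcripts. Mir1a-1 and Mir133a-2 lie 9254 bases apart, and their host Mir1a-1hg (2:180385604 to 180401802, plus strand, 16199 bp, 4 exons) faces the long noncoding RNA B230312C02Rik, which starts at 180385885 on the other strand. Mir1a-2 (18:10785481 to 10785552) and Mir133a-1 (18:10782909 to 10782976) lie 2504 bases apart on the minus strand in intron 2 of Mir133a-1hg, which RefSeq draws from 10791393 down to 10778306 (13088 bp) and GENCODE from 10785883 down to 10781723. That transcript runs antisense through an intron of Mib1, a ubiquitin ligase gene, and Mir1b, an antisense copy, overlaps Mir1a-2. Mir206 and Mir133b lie 3686 bases apart on the plus strand of Lincmd1 (1:20669882 to 20682958, 13077 bp). Peaks without strand cannot be given to one of 2 overlapping transcripts.

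The lists differ in length, which bears on every count below. The BMAL1 lists hold 34737 and 177669 peaks (replicates 1 and 2), the REV-ERBα lists 28881 and 29934, and the RNAP2 lists 87870 and 168821. Peak strength is given below as the −log10 p of the peak caller, a larger value meaning less expected from input alone, and −log10 q is that value after correction for multiple tests. The median strength per list lies between 1.87 and 3.21, and the reads behind a peak are unknown, so no counting interval can be given. The tissue label was checked at marker genes. All 6 skeletal muscle markers (Ckm, Acta1, Tnnt3, Myh4, Mybpc2 and Pvalb) had a region of BMAL1, REV-ERBα and RNAP2 in both replicates within 20 kb of their TSS, and 5 of 6 had an RNAP2 region within 1 kb of it. Of 3 markers each for liver, neuron, fat, endothelium, blood and heart, none had an RNAP2 region of both replicates within 1 kb. Within 20 kb, such a region was found at 0 liver, 0 neuron, 2 fat, 1 endothelium, 1 blood and 0 heart markers. A BMAL1 region lay near 1 heart marker and a REV-ERBα region near 1 liver marker, Ttr, and none near the rest. Over all protein-coding genes, 4.69% had a BMAL1, 4.26% a REV-ERBα and 41.8% an RNAP2 region of both replicates within 20 kb of the TSS. The REV-ERBα strength at Ttr, the gene of the transport protein transthyretin, was 21.7 and 30.8, above each of the 6 muscle markers in both replicates. BMAL1 replicate 1 also had a peak of 12.2 there, against 1.40 in replicate 2, and the RNAP2 lists held none in replicate 1 and one of 2.86 in replicate 2. The source of the Ttr signal was not tested.

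At the Mir1a-1 and Mir133a-2 cluster, all 6 lists held broad and strong peaks. The strongest BMAL1 peak had a strength of 11.9 in replicate 1 and 18.8 in replicate 2, and fold enrichment over input was 5.06 and 6.61. These peaks ranked 29th of 34737 and 4th of 177669 by strength. The strongest REV-ERBα peak had a strength of 48.6 and 45.9, at 12.2-fold and 12.7-fold enrichment, and ranked 21 and 17. The strongest RNAP2 peak had a strength of 124 and 48.1, at 36.8-fold and 16.3-fold enrichment, and ranked 5 and 27. The locus was chosen by BMAL1 and REV-ERBα strength, but with earlier results of these data known, so the RNAP2 values are a description too. For scale, the strongest BMAL1 peaks within 20 kb of the TSS of the clock genes Per1 and Nr1d1 had a strength of 36.5 and 21.2, and 20.4 and 31.6. REV-ERBα there reached 5.41 and 7.69 at Per1 and 6.24 and 5.39 at Nr1d1, and RNAP2 26.0 and 14.8, and 19.0 and 11.7. The microRNA cluster was thus below both clock genes for BMAL1 and above both for REV-ERBα and RNAP2, in each replicate. High REV-ERBα and RNAP2 values were shared with muscle genes, and BMAL1 peaks were present there too. The strongest BMAL1 peaks of the 6 muscle markers ran from 4.56 (Mybpc2) to 8.68 (Myh4) in replicate 1. In replicate 2 they ran from 4.25 (Mybpc2) to 13.4 (Ckm). The microRNA cluster lay above all of them, at 11.9 and 18.8. REV-ERBα reached 20.5 and 27.5 at Ckm, the muscle creatine kinase, and 21.5 and 15.4 at Pvalb, the calcium buffer parvalbumin. RNAP2 reached 131 and 39.9 at Acta1, the skeletal actin, 84.5 and 31.6 at Ckm, and 74.8 and 46.8 at Pvalb. The microRNA cluster stood above all 6 muscle markers for REV-ERBα in both replicates, and for RNAP2 below Acta1 in replicate 1 and above all 6 in replicate 2.

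The Mir1a-2 and Mir133a-1 cluster, at the paralogous locus on chromosome 18, was lower than the first in every list. Its strongest BMAL1 peak had a strength of 6.74 and 6.43, its strongest REV-ERBα peak 14.0 and 16.3, and its strongest RNAP2 peak 34.3 and 19.4. BMAL1 ranked 76 and 37, REV-ERBα 122 and 103 and RNAP2 206 and 274. For each factor both values lay below both values of the first cluster, and fold enrichment was ordered the same way, BMAL1 at 3.78 and 4.03, REV-ERBα at 5.81 and 6.49, RNAP2 at 11.1 and 8.02. The BMAL1 peak had a −log10 q of 1.68 in replicate 1 and 0.980 in replicate 2, so only the first reached 1.3. Its strength lay within the range of the 6 muscle markers in both replicates.

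The Mir206 and Mir133b cluster held only small peaks in any list. BMAL1 reached a strength of 2.995 and 2.92, RNAP2 3.97 and 1.99, and REV-ERBα 3.18 in replicate 2, with no REV-ERBα peak in the window in replicate 1. No peak there had a −log10 q of 1.3. Ranks ran from 3984 for REV-ERBα replicate 2 to 70125 for RNAP2 replicate 2. The nearest peak to the Mir133b hairpin was the BMAL1 peak of replicate 1, which ended 103 bp short of it, and in replicate 2 the nearest BMAL1 peak lay 12133 bp away. Of the peaks that set the limits of the 3 windows, the outermost inside was a small RNAP2 peak at 19.1 kb from the Mir1a-2 cluster (strength 3.21), and the nearest outside a BMAL1 peak at 20.2 kb from the Mir206 cluster (strength 2.23).

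**Figure D1:**
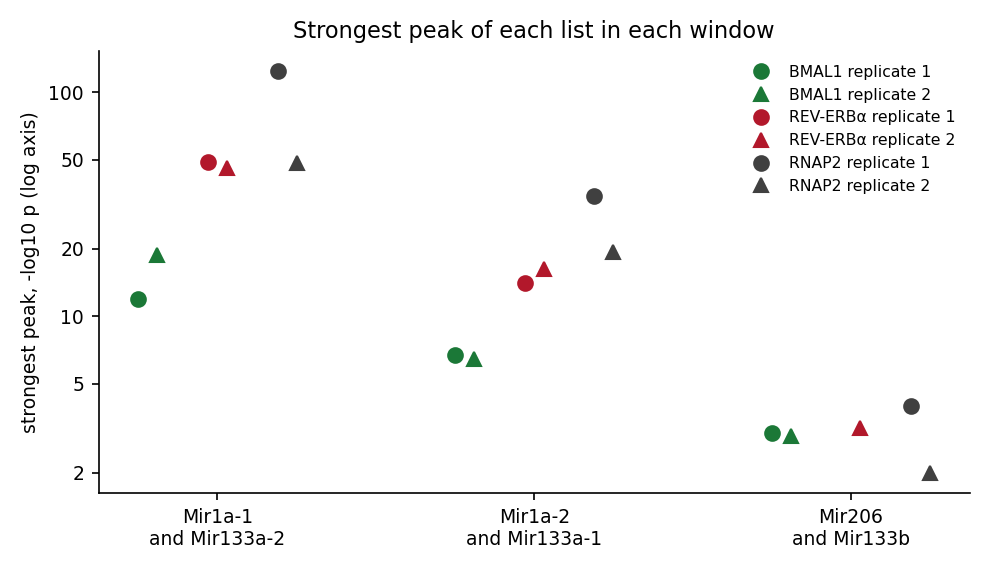
Strongest −log10 p (vertical log axis) of each of the 6 lists in the windows of the 3 microRNA clusters, with circles for replicate 1 and triangles for replicate 2. In all 6 lists the value falls from Mir1a-1 over Mir1a-2 to Mir206, where REV-ERBα replicate 1 has no peak and no symbol. The Mir1a-1 cluster was chosen by its BMAL1 and REV-ERBα values.

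The clusters were next compared by regions, which are merged peaks that overlap by at least 1 bp, counted when both replicates of a factor had a peak in them. BMAL1 had 4 such regions at the Mir1a-1 cluster, 2 at the Mir1a-2 cluster and 0 at the Mir206 cluster. Over all microRNA genes 3.86% had a BMAL1 region of both replicates within 20 kb, and 4.69% of 21938 protein-coding genes had one within 20 kb of their TSS. REV-ERBα had 3, 1 and 0 regions, against 3.63% of microRNA genes and 4.26% of protein-coding genes. RNAP2 had 7, 1 and 0 regions, against 27.5% of microRNA genes and 41.8% of protein-coding genes. Sites at which 3 or more of the 4 lists of the clock factors BMAL1 and REV-ERBα overlapped numbered 2, 1 and 0, and 1.18% of microRNA genes had such a site. The 4 genes of the miR-1 and miR-133a clusters therefore had regions of all 3 factors, and the 2 genes of the Mir206 cluster had none of any, as most microRNA genes had none of BMAL1 or REV-ERBα. The locus choice fixed the BMAL1 and REV-ERBα counts of the first cluster, so nothing is read from them against the background.

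A stricter limit left fewer regions. When every peak needed −log10 q 1.3 or more, a BMAL1 region of both replicates remained near 2 of the 2202 microRNA genes, Mir1a-1 and Mir133a-2. A REV-ERBα region remained near 18, among them Mir1a-1, Mir133a-2, Mir1a-2 and Mir133a-1. The BMAL1 region near Mir1a-1 and Mir133a-2 is 1 and the same. That cluster was chosen by its BMAL1 and REV-ERBα strength, so nothing is read from its place among all microRNA genes.

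REV-ERBα formed 1 continuous block over the whole Mir1a-1hg transcript. Its peak was 22904 bp wide in replicate 1 and 21966 bp in replicate 2, the second widest peak of either list, and the merged region spans 23480 bp (2:180385365 to 180408844). RNAP2 covered the same stretch in pieces, with regions of 6548 bp from the promoter through Mir1a-1 and of 13086 bp from before Mir133a-2 to beyond the host, and smaller ones of 2286 and 986 bp between. BMAL1 lay in 4 separate regions of 2802 bp at the promoter, 1658 bp just past Mir1a-1, 6759 bp through Mir133a-2 and 6943 bp downstream of it. The last 2 are the widest, and the peak in the downstream region was the widest of its whole list in replicate 2 (5937 bp) and ranked 3 by width in replicate 1 (6528 bp). The site merged from the 4 BMAL1 and REV-ERBα lists was 23641 bp wide, second by width of the 550 such sites.

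Coverage of the host transcripts by peaks followed the same order of clusters. Mir1a-1hg was covered over 77.1% and 56.8% of its length by BMAL1, 100% and 100% by REV-ERBα, and 95.7% and 90.8% by RNAP2. Peaks ran past its annotated 3′ end by 3243 to 6849 bp in the 6 lists. Mir133a-1hg was covered over 38.7% and 23.98% by BMAL1, 56.7% and 63.6% by REV-ERBα, and 71.7% and 67.2% by RNAP2. Lincmd1 was covered over 4.64% and 0.719% by BMAL1, and no REV-ERBα or RNAP2 peak touched it. In the windows as a whole, BMAL1 covered 17824 and 16013 bp, REV-ERBα 24370 and 24012 bp, and RNAP2 25098 and 23276 bp at the Mir1a-1 cluster (window 50953 bp). At the Mir1a-2 cluster (42644 bp) the values were 5066 and 3386, 7418 and 8325, and 9980 and 9940 bp. At the Mir206 cluster (43878 bp) they were 607 and 1872, 0 and 909, and 274 and 906 bp. The order of the 3 clusters held in all 6 lists, and at the first 2 clusters the replicates of a factor differed by less than the clusters did. The choice of the Mir1a-1 cluster by its BMAL1 and REV-ERBα strength favored its first place in the lists of these factors, so the order there is a description.

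**Figure D2:**
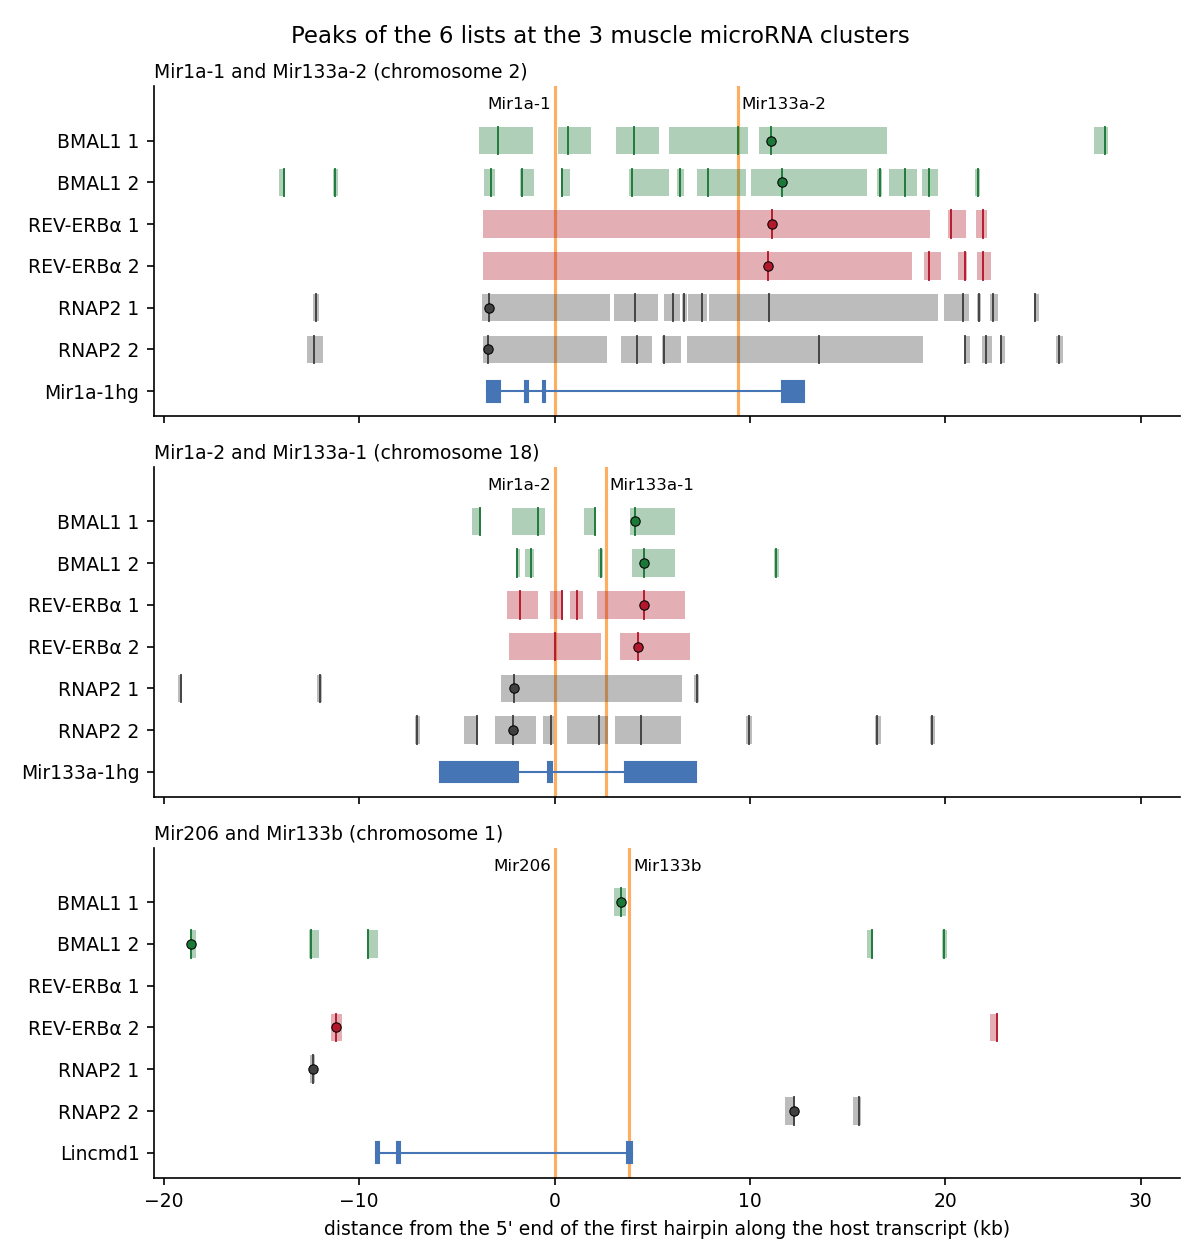
Peaks (bars), summits (ticks) and the strongest summit (dot) of each list at the 3 clusters, by distance in kb from the 5′ end of the first hairpin along the host transcript, with hairpins as orange lines and RefSeq host exons in blue. REV-ERBα runs as 1 block through Mir1a-1hg, BMAL1 lies in 4 regions there, and the Mir206 window holds only isolated small peaks.

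The strongest summits of the clock factors and of RNAP2 lay at different ends of both miR-1 and miR-133a clusters. At the Mir1a-1 cluster the strongest BMAL1 summit lay 1662 and 2206 bp past the 3′ end of the Mir133a-2 hairpin, and the strongest REV-ERBα summit 1684 and 1499 bp past it, all in intron 3 just before the last exon of the host. At the Mir1a-2 cluster the distances past the Mir133a-1 hairpin were 1493 and 1909 bp for BMAL1 and 1943 and 1634 bp for REV-ERBα, in the last exon of the RefSeq host. All 8 summits fell between 1493 and 2206 bp downstream of a miR-133a hairpin. The strongest RNAP2 summits lay upstream of the miR-1a hairpins instead, at −3350 and −3414 bp from the 5′ end of Mir1a-1 and at −2100 and −2111 bp from that of Mir1a-2. At Mir1a-1 they stood 94 and 30 bp after the TSS of Mir1a-1hg. The same summits stood 187 and 251 bp after the start of B230312C02Rik on the other strand, so they cannot be given to either transcript alone. At Mir1a-2 they stood 3741 and 3730 bp after the RefSeq start of Mir133a-1hg, inside its first exon, and upstream of the start that GENCODE gives. No peak of any list covered the RefSeq start of Mir133a-1hg.

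**Figure D3:**
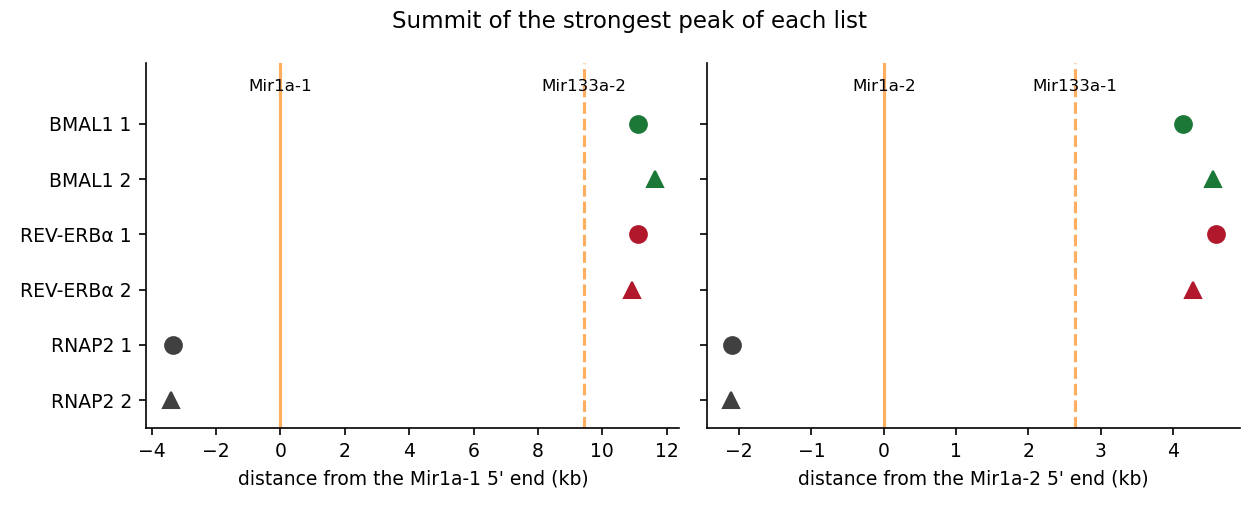
Position of the strongest summit of each list, in kb from the 5′ end of the miR-1a hairpin along the transcript, with the solid line at that end and the dashed line at the 3′ end of the miR-133a hairpin. BMAL1 and REV-ERBα summits stand 1493 to 2206 bp beyond the dashed line and RNAP2 summits at −3414 to −2100 bp from the solid line.

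RNAP2 was not absent downstream, and BMAL1 was not absent at the promoter. The downstream RNAP2 peak of the Mir1a-1 cluster had a strength of 44.8 in replicate 1, with its summit 1530 bp past Mir133a-2, and of 13.01 in replicate 2, with its summit 4085 bp past it. At the Mir1a-2 cluster RNAP2 replicate 2 also had a downstream peak, of strength 9.04, with its summit 1790 bp past Mir133a-1. In replicate 1 a single RNAP2 peak spanned that cluster, with its summit upstream. An RNAP2 summit within the range of the BMAL1 and REV-ERBα summits was thus seen in 1 replicate at each cluster. The BMAL1 peak over the Mir1a-1hg TSS had a strength of 8.19 and 3.60, against 11.9 and 18.8 downstream, and its summit lay at −2920 and −3264 bp from the Mir1a-1 hairpin. At the Mir1a-2 cluster the other BMAL1 region lay upstream of the hairpins and had a strength of 3.03 and 2.98. In both clusters and both replicates BMAL1 was therefore stronger downstream of miR-133a than upstream of miR-1a.

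The hairpins themselves lay inside peaks to a different extent. Mir133a-2 was inside a peak in all 6 lists, with a strength of 4.70 and 8.04 for BMAL1. Mir1a-1 was inside REV-ERBα and RNAP2 peaks of both replicates, but lay 115 and 231 bp before the nearest BMAL1 peak. Mir1a-2 was inside REV-ERBα peaks of both replicates (strength 2.095 and 5.45) and an RNAP2 peak of replicate 1, and missed one by 51 bp in replicate 2. Mir133a-1 was inside RNAP2 peaks of both replicates (34.3 and 12.98) and a REV-ERBα peak of replicate 1, which in replicate 2 began 189 bp away. BMAL1 peaks lay 97 to 1049 bp from these last 2 hairpins. Mir206 and Mir133b were in no peak of any list. In both replicates 1 member was touched by BMAL1, 3 by REV-ERBα and 3 by RNAP2, against 0.0908%, 0.227% and 2.63% of all microRNA genes. Mir133a-2, and Mir1a-1 in the same REV-ERBα peak, belong to the cluster that was chosen by its BMAL1 and REV-ERBα values. Nothing is therefore read from the BMAL1 and REV-ERBα counts against the background. The few hairpins inside BMAL1 peaks of both replicates were Mir133a-2 and Gm24105, and those inside REV-ERBα peaks were Mir1a-1, Mir133a-2, Mir1a-2, its overlapping copy Mir1b, and Mir8102. Gm24105 and Mir8102 were named after their values were seen.

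All microRNA genes were ranked by the base pairs covered within 20 kb of each. Mir133a-2 and Mir1a-1 took the first 2 places in all 6 lists, and since their windows overlap they are a single locus and not 2 observations. That locus was chosen by its BMAL1 and REV-ERBα strength, so nothing is read from its places in the lists of these factors. Mir133a-2 had 17824 and 15420 bp for BMAL1, 24370 and 24012 bp for REV-ERBα, and 24765 and 22469 bp for RNAP2. The median microRNA gene had 0 and 978 bp for BMAL1, 0 and 0 bp for REV-ERBα, and 335 and 1049 bp for RNAP2. Mir1a-2 and Mir133a-1 followed, with 2 to 4 genes above them in 5 lists and 17 genes above them in BMAL1 replicate 2. Mir206 had 1235 and 1264 genes above it for RNAP2, near the middle of the 2202, and 315 and 331 for BMAL1.

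**Figure D4:**
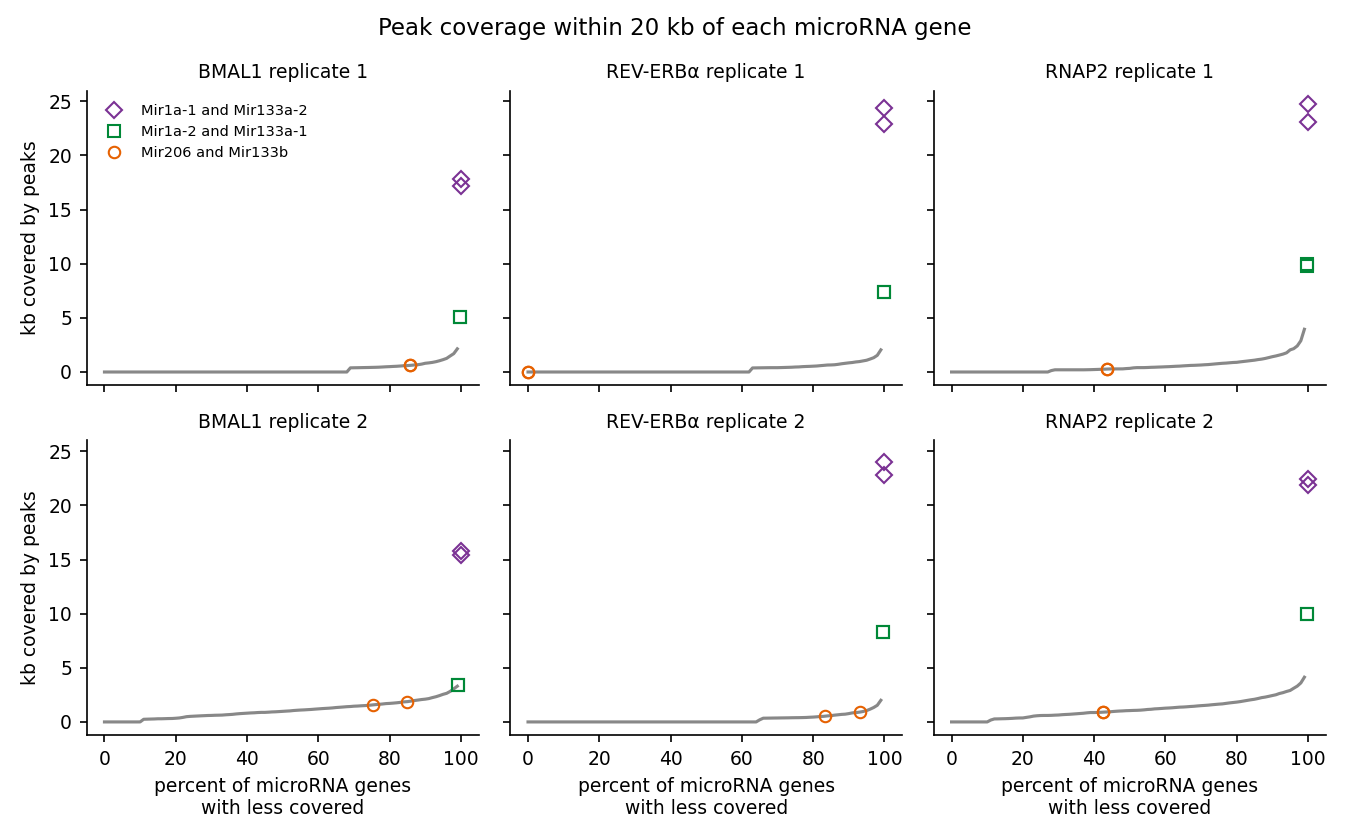
Kilobases covered by peaks within 20 kb of a microRNA gene (vertical axis) against the percent of the 2202 microRNA genes with less covered, 1 panel per list; the grey line shows all microRNA genes up to the 99th percentile and symbols the 6 members. Mir1a-1 and Mir133a-2 lie between 15420 and 24765 bp over the panels. Mir206 and Mir133b lie at 0 to 1872 bp, with 42.4% to 43.7% of genes less covered for RNAP2, 75.3% to 85.6% for BMAL1, and 0% or 83.4% to 93.1% for REV-ERBα replicates 1 and 2.

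Peaks of the 3 factors fell largely on the same base pairs at the miR-1 and miR-133a clusters. At the Mir1a-1 cluster 93.3% to 95.3% of the base pairs in BMAL1 peaks were also in REV-ERBα peaks, over the 4 pairs of lists, and 86.1% to 94.2% were also in RNAP2 peaks. Over the whole BMAL1 lists the shares were 1.07% to 2.34% and 1.27% to 4.77%. Of the base pairs in REV-ERBα peaks at this cluster, 87.6% to 95.6% were in RNAP2 peaks, against 4.58% to 7.29% over the whole lists. The cluster was chosen by its BMAL1 and REV-ERBα strength. The whole lists hold mostly narrow peaks, with a median width of 508 and 314 bp for BMAL1. Nothing is therefore read from the overlap at this cluster against the whole lists. At the Mir1a-2 cluster 89.7% to 92.7% of BMAL1 base pairs were in RNAP2 peaks, and 81.5% to 98.1% of REV-ERBα base pairs. There 71.8% to 92.7% of BMAL1 base pairs were in REV-ERBα peaks, a wider range than at the Mir1a-1 cluster. At the Mir206 cluster no BMAL1 base pair was in a REV-ERBα peak, no REV-ERBα base pair was in an RNAP2 peak, and 0% to 14.6% of BMAL1 base pairs were in RNAP2 peaks. The 14.6% stands for 274 bp, and REV-ERBα replicate 1 had no peak there. Shares over the whole lists were low as well, so the low overlap is not particular to this cluster. RNAP2 coverage thus followed the same order of the 3 clusters as BMAL1 and REV-ERBα coverage. At the 6 muscle marker genes regions of all 3 factors were present, and base pairs covered were not measured there. The part of RNAP2 density, or of transcription itself, in the BMAL1 and REV-ERBα peaks was not tested. BMAL1 and RNAP2 came from the same ZT. The labels list a single input DNA, while the paper's read counts list replicate input libraries.

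One RNAP2 region stood alone. At 2:180376396 to 180377202, in an intron of B230312C02Rik and more than 11 kb upstream of Mir1a-1, RNAP2 had a strength of 7.49 and 8.12, and no BMAL1 or REV-ERBα peak overlapped it. Downstream of the block, 2 small REV-ERBα regions of 954 and 764 bp (strength 3.18 to 3.57) and 2 RNAP2 regions of 1347 and 823 bp (1.94 to 5.601) lay between 19924 and 22699 bp from the start of Mir1a-1.

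Motifs were searched within 100 bp of the strongest summits, on both strands. Of the 8 BMAL1 and REV-ERBα summits at the miR-1 and miR-133a clusters, 1 had CACGTG, that of REV-ERBα replicate 2 at the Mir1a-1 cluster shown above. Over all regions of both replicates, 2.66% and 3.06% of BMAL1 summits and 3.56% and 4.28% of REV-ERBα summits had it. CANNTG was present at 5 of the 8 summits, against 63.1% to 66.2% of all such summits, while CAGCTG and AGGTCA, the MEF2 consensus and the RORE were at none of them. Within 250 bp, CACGTG was present at 3 of the 8, all 3 reading the one E-box downstream of Mir133a-2. At that width 5.25% and 5.65% of all BMAL1 summits and 9.11% and 9.18% of all REV-ERBα summits had it. At the Mir1a-2 cluster CACGTG was absent within 250 bp of the strongest summits. The RNAP2 summits there, at 10787652 and 10787663, had AGGTCA at the same 2 positions. The nearest started at −16 and −27 bp from the summit, against 9.77% and 9.24% of all RNAP2 summits with a match. At the Mir1a-1 cluster RNAP2 had AGGTCA within 100 bp in replicate 1 only, at +65 bp. The absence of a match says only that these letters are not in the window.

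The known regulators of these loci were examined in the same lists. They were Myod1, Myog, Myf5, Myf6, Mef2a, Mef2c, Mef2d and Srf. Of these, 7 of 8 had an RNAP2 region of both replicates within 20 kb of the TSS, against 41.8% of protein-coding genes. Myf5 and Myf6 had the same strongest RNAP2 peaks (5.69 and 4.27). A BMAL1 region lay near 2, against 4.69%, where peaks reached only 2.48 and 2.32 (Mef2a) and 3.53 and 2.35 (Mef2c). A REV-ERBα region lay near 2 (Mef2a and Mef2d), against 4.26%. The highest RNAP2 values were those of Myod1 (strength 18.9 and 8.12), Mef2a (13.6 and 8.30) and Mef2d (13.1 and 17.98), and Mef2a had the highest REV-ERBα values (15.7 and 6.6). None had a site shared by 3 clock factor lists. Of the other muscle microRNA genes, Mir208a, Mir208b and Mir499, which lie in myosin genes, and Mir486, which lies in an ankyrin gene, none had a BMAL1 or REV-ERBα region within 20 kb, and Mir486 had RNAP2 regions (7.62 and 7.37). Of 11 microRNA genes known from other tissues, 0 had a BMAL1 region, 2 a REV-ERBα region (Mir143 and Mir145a, neighbors known from smooth muscle) and 4 an RNAP2 region. Over all microRNA genes the shares were 3.86%, 3.63% and 27.5%. Mir143 and Mir145a also had a site shared by 3 or more of the BMAL1 and REV-ERBα lists, against 1.18% of all microRNA genes. The lists are short and were not tested.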

How the data were processed

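ChIP-seq peaks were taken from 6 lists of gastrocnemius samples. Reads had been aligned by the authors to mm10 with BWA MEM, duplicate and multi-mapping reads removed, replicates of a factor down-sampled towards the shallower one, and peaks called on each sample separately with MACS2 2.1.1 against input DNA. For each peak the authors' MACS2 run gave −log10 p, −log10 q and a fold enrichment ratio over background, all deposited with the peak. The smallest −log10 p in any list is 1.3. The deposited score column is −log10 p times 10 and was not used. The deposited summit offset gave summit positions. The input sample, 1 of 7, was not analysed here beyond its part in the authors' peak calling.

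Genes came from GENCODE M21 and hosts from RefSeq GRCm38.p6, the same assembly as the lists. Peaks that shared 1 bp or more were merged, and a window reached 20 kb beyond the outermost hairpins. Replicates are separate samples in the labels, replicates were compared by giving both values, and no test was made. Consensus motifs were searched on both strands. Members, gene lists and motifs were chosen with earlier results of these data known. Named genes are the members, their hosts and neighbors, other muscle microRNA genes, regulators and Per1 and Nr1d1. Alternatives were stricter −log10 p or −log10 q, equal list lengths, 50% overlap, windows of 10 or 50 kb, summit windows of 50 or 250 bp, and leaving out each replicate. The region code was tested on simulated peaks. Python 3.11.15, numpy, pandas, pysam and matplotlib were used.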

Additional observations from a re-analysis of the deposited data

How the results depend on the processing

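Reads per peak were unknown, each factor had 2 replicates of 1 time, and BMAL1 replicate 2 and RNAP2 replicate 2 had the longer lists, so small peaks are the least certain values here. No paired analysis was possible because no result comes from a test. The order Mir1a-1 over Mir1a-2 over Mir206 in covered base pairs held in 6 of 6 lists at −log10 p of at least 3, equal list length and windows of 10 and 50 kb, and in 5 of 6 at −log10 q of at least 1.3, where BMAL1 replicate 2 had no peak at the last 2 clusters. The order of strongest peaks held in 6 of 6 lists with 10 and 50 kb. The choice of the Mir1a-1 cluster favored its first place in the BMAL1 and REV-ERBα lists under each of these settings.

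Regions of both replicates changed as follows. With −log10 p of at least 3, BMAL1 kept 1 region at Mir1a-2, and the share of microRNA genes was 0.5% for BMAL1 and 1.68% for REV-ERBα. With −log10 q of at least 1.3, the Mir1a-1 cluster had 1 BMAL1, 1 REV-ERBα and 4 RNAP2 regions and 1 shared site, Mir1a-2 had 0 BMAL1 regions, and the shares were 0.0908%, 0.817% and 14.0%. With equal list lengths the BMAL1 share was 1.14%. With 10 kb, Mir1a-1 had 1 REV-ERBα and 4 RNAP2 regions and 1 shared site, and the shares were 2.18%, 2.23% and 17.8%. With 50 kb the shares were 8.58%, 7.63% and 45.5%. Without 1 replicate, single-list peaks numbered 6 to 13 for BMAL1, 3 to 4 for REV-ERBα and 9 to 11 for RNAP2 at Mir1a-1, 4 to 5, 2 to 4 and 4 to 9 at Mir1a-2, and 1 to 5, 0 to 2 and 1 to 2 at Mir206, and shares ran from 31.7% to 90%, 35.2% to 37.9% and 72.3% to 89.1%. Shared sites without 1 list numbered 1 to 2 at Mir1a-1 and 1 to 2 at Mir1a-2. Requiring 50% overlap left these counts within 1.5 times. With 250 bp, CAGCTG and AGGTCA were each found at 1 of the 8 BMAL1 and REV-ERBα summits and CANNTG at 8. Over all such summits the shares were 15.6% to 26.4%, 23.9% to 28.7% and 88.8% to 93%.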

Other observations

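Besides the members, the microRNA genes with a REV-ERBα region of both replicates within 20 kb at a −log10 q of at least 1.3 included Mir210, known from hypoxia, Mir497 with Mir195a, which share 1 cluster on chromosome 11, and Gm27514 on chromosome 6. These were named after the list had been seen. Gm27514 had 8813 bp covered by REV-ERBα peaks in replicate 2, more than Mir133a-1 with 8325 bp. In replicate 1 the order was reversed, with 5868 bp at Gm27514 and 7418 bp at Mir133a-1.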
